A study of Mus musculus with 6 samples.

Results

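The 10 genes described here encode receptors for the growth factors in the culture medium, and their relatives. They are the ErbB receptors Egfr, Erbb2, Erbb3 and Erbb4, the FGF receptors Fgfr1, Fgfr2, Fgfr3, Fgfr4 and Fgfrl1, and Errfi1, an inhibitor of ErbB kinases. They were chosen by symbol from the 24972 genes of the table, and all 10 were found there. RNA was sequenced from 6 cultures of mouse neural stem cells (NSCs) from the V-SVZ (ventricular-subventricular zone), the niche beside the lateral ventricles, to ask which transcripts differ when Tsc2 is mutated. Tsc2 encodes tuberin, a brake on the growth kinase complex mTORC1. Of the cultures, 3 were Tsc2 wt/wt and 3 were Tsc2 mut/mut, the latter carrying floxed Tsc2 alleles (Tsc2 tm1.1Mjg). According to the study's methods, mice of both groups carried the tamoxifen-inducible, Nestin-driven Cre transgene Nestin-CRE-ER T2 and a ROSA26 tdTomato reporter, were injected with tamoxifen as neonatal pups and were killed the following week. Recombination was thus directed to Nestin-expressing cells only, the cells had been passaged before RNA was taken, and no sorting was described, although the study called the subcultured NSCs uniformly positive for the reporter. Both groups were grown as monolayers on laminin and poly-D-lysine, in B-27 medium to which mouse EGF (0.02%), mouse FGF-basic (0.02%) and a heparin stock (0.008%) had been added.

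ErbB receptors are tyrosine kinases that pair upon ligand binding and signal to the Ras-ERK and PI3K cascades. Egfr binds EGF, TGF-alpha and related ligands, Erbb3 and Erbb4 bind neuregulins, and Erbb2 has no known ligand of its own and acts as a partner of the others. FGF receptors bind FGFs together with heparan sulfate, and Fgfrl1 is a family member that lacks the kinase domain. In the V-SVZ, Egfr marks activated stem cells and transit-amplifying progenitors, and EGF and FGF2 are the mitogens that keep NSCs dividing in culture.

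The receptors did not move together between the genotypes. As deposited, Erbb2, Fgfrl1, Fgfr1 and the barely detected Fgfr4 were higher in the mut/mut-labelled libraries, Erbb4, Erbb3 and Fgfr3 were lower, and Egfr, Fgfr2 and Errfi1 did not pass the test. Fgfr1 lost its call with equal column totals, and the direction of Egfr changed between scalings. Genes were called below an adjusted p of 0.05 in limma, a linear model fitted to log2(normalised count + 1) of all 13964 genes with a mean of at least 10, with Benjamini-Hochberg adjustment over all of them. By this rule 7 of the 10 genes were called, 4 higher and 3 lower. Of all genes tested 75.5% were called, 36.8% higher and 38.7% lower, so the share among the receptors lay close to that of all genes. The groups did not overlap for 8 of the 10, against 80.6% of all genes tested. Erbb3 passed the filter on the mean through wt/wt only and Fgfr4 through the mut/mut-labelled libraries only, so each had to differ in order to be tested, and the counts over the 10 lend no support to a pattern of the family. Labels do not say whether the cultures came from separate animals, and p-values measure only the spread between these samples.

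The promoters of the 4 genes that kept their call under each scaling and with each library left out, and that are in the RefSeq promoter table, are shown first. For Fgfr4 the reservation on the filter holds, so its call is not a finding of the same kind as the others. They are the 250 bases before an annotated start (GRCm38.p6), read 5′ to 3′ on the gene's strand, with GC boxes in capitals. Erbb2 (chr11:98412234-98412483, plus strand), Fgfrl1 (chr5:108693979-108694228, plus strand) and Fgfr4 (chr13:55152568-55152817, plus strand) were higher in the mut/mut-labelled libraries, and Erbb4 (chr1:69108060-69108309, minus strand) was lower.
Erbb2: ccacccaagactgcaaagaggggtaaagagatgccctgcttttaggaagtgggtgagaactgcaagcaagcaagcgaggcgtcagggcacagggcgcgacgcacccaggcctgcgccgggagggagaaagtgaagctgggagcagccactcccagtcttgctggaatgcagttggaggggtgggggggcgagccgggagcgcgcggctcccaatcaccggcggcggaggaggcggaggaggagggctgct
Fgfrl1: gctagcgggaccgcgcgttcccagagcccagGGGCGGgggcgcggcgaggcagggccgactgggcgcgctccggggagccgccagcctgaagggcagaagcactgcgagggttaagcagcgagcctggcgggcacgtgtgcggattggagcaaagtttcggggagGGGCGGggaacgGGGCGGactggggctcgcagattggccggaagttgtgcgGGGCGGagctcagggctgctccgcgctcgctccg
Fgfr4: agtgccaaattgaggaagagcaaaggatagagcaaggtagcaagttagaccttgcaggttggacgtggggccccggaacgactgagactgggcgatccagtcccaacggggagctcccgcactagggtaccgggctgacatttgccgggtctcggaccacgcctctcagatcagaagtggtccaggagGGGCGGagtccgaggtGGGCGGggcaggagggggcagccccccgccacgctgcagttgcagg
Erbb4: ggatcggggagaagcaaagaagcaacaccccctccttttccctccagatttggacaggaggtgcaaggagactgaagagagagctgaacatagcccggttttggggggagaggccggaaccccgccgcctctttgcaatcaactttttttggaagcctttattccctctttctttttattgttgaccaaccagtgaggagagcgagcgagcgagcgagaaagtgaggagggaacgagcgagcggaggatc

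A GC box was taken as GGGCGG or its complement CCGCCC, and TATAAA and CCAAT were searched likewise on both strands, with overlapping matches counted. Fgfrl1 had 4 GC boxes and 2 CCAAT motifs in its window, Fgfr4 had 2 GC boxes, Erbb2 had 1 CCAAT and no GC box, and Erbb4 had none of the motifs. Of all 32851 promoters listed, 32.7% held a GC box, 33.8% a CCAAT and 12.4% a TATAAA. The windows had GC contents of 66.0% (Erbb2), 73.6% (Fgfrl1), 64.0% (Fgfr4) and 54.0% (Erbb4), where the median over all promoters was 52.4%. CG dinucleotides numbered 16, 30, 15 and 12 in the same order, against a median of 6. None of these motifs was shared by Erbb2, Fgfrl1 and Fgfr4. Of the other receptors in the table, Egfr had 1 GC box, the starts of Fgfr3 had 3 and 2, and Fgfr2 had none of the motifs in a window of 44.0% GC. For Errfi1 the upstream start had none and the downstream start had 3 GC boxes, a TATAAA and a CCAAT. Promoters of 8 of the 10 genes were found in the table.

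Egfr (chr11:16752203-16913907, plus strand), the receptor for the EGF of the medium, was at 4649, 6093 and 5276 normalised counts in wt/wt and at 4552, 4633 and 4518 in the mut/mut-labelled libraries. The mut/mut values lay close together and just below the lowest wt/wt value. The means were 5339 ± 724 and 4568 ± 59.2 (SD, n = 3 each), giving a log2 fold change of -0.22 ± 0.15 (SE, limma adjusted p = 0.223). With equalised column totals the difference was -0.93 ± 0.16 and was called (adjusted p = 9.69e-04), whereas after removal of a trend with GC content and transcript length Egfr was higher, by 2.23 ± 0.19 (adjusted p = 9.90e-06). The direction of Egfr between the genotypes thus depended on the processing.

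Erbb2 (chr11:98412484-98437716, plus strand), the partner receptor, had 797, 830.3 and 762 normalised counts in wt/wt and 1693, 1570 and 2811 in the mut/mut-labelled libraries. All mut/mut values exceeded all wt/wt values, and mut/mut replicate 3 was the highest. The means were 796 ± 34.3 and 2024 ± 684 (SD, n = 3 each), giving a log2 fold change of 1.30 ± 0.22 (SE, limma adjusted p = 3.70e-04). It was smaller, at 0.58 (adjusted p = 0.0162), with totals set equal.

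Erbb3 (chr10:128567523-128589635, minus strand), a neuregulin receptor with a weak kinase, was barely present. It had 12.4, 25.3 and 22.2 normalised counts in wt/wt and 1.25, 0.937 and 0 in the mut/mut-labelled libraries, equal to an estimated 81 reads over wt/wt and 2 over mut/mut. The groups did not overlap. The log2 fold change was -3.62 ± 0.56 (SE, limma adjusted p = 1.70e-04). The ratio of wt/wt to mut/mut, from estimated reads and depth, was 21.3, with a 95% binomial interval of 5.72 to 179. It covers the counting error of estimated reads only. Since Erbb3 passed the filter through wt/wt only, neither the p-value nor the interval is support for a difference. A bulk measurement cannot tell fewer cells of a type from less RNA per cell, and all 8 microglia and macrophage markers were lower in the same libraries (38.7% of all genes tested were). Together these 8 summed to only 19.9 to 40.0 normalised counts in the mut/mut-labelled libraries. Most of them therefore passed the filter on the mean through wt/wt only and, like Erbb3, had to be lower to be tested. The 2 shares are therefore not alike. As deposited, of 8 oligodendrocyte precursor markers 6 were lower and 2 higher. Their summed level as deposited was higher, at 134136 to 146235 normalised counts in wt/wt and 172770.1 to 242551 in the mut/mut-labelled libraries. With totals set equal 7 of the 8 were lower and 0 higher, and the same counts held once detrended for GC content and length. The sum was not compared under these scalings. The part of these cells in the Erbb3 values was not tested.

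Erbb4 (chr1:68031884-69108576, minus strand), another neuregulin receptor, showed the largest difference of the 10 as deposited. Counts after normalisation were 330.2, 471 and 374 in wt/wt and 21.2, 12.7 and 10.2 in the mut/mut-labelled libraries. Every wt/wt library was far above every mut/mut library. The means were 392 ± 72.3 and 14.7 ± 5.77 (SD, n = 3 each), giving a log2 fold change of -4.70 ± 0.31 (SE, limma adjusted p = 9.63e-07). The fall was -5.38 with totals set equal and -1.32 ± 0.24 once detrended for GC content and length (adjusted p = 7.64e-04).

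**Figure D1:**
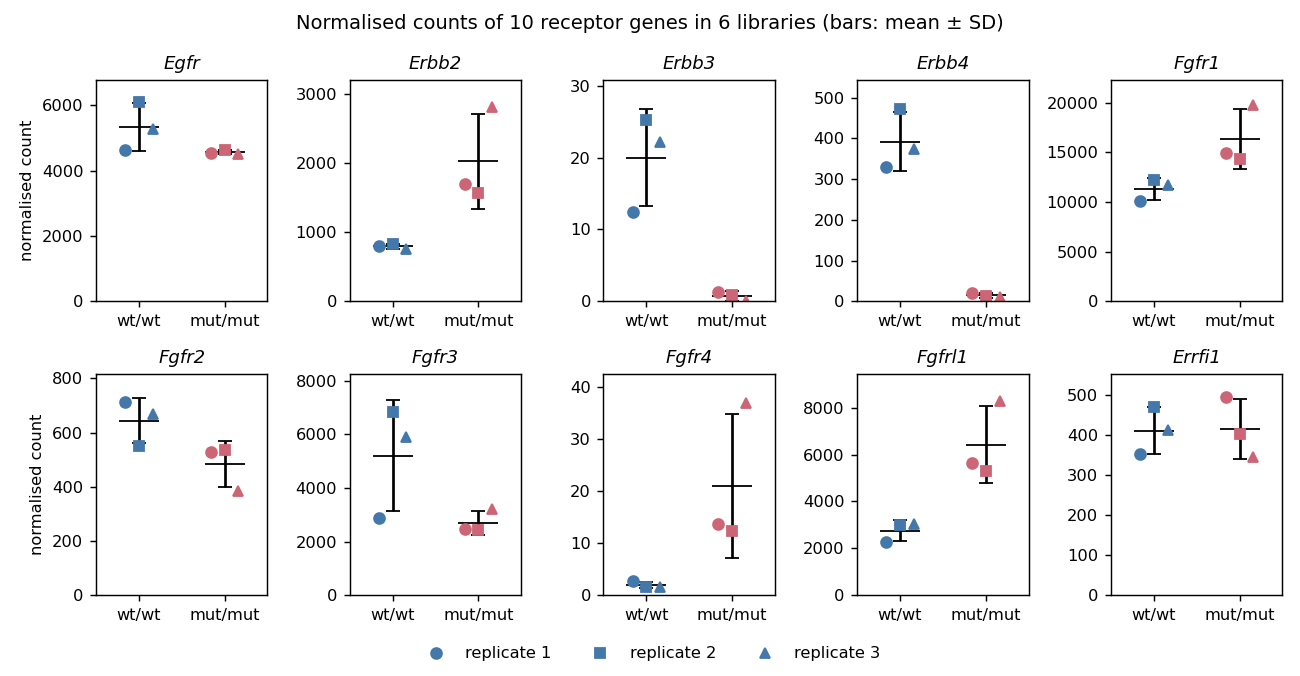
Normalised counts (y axis, from 0) of each gene in the 3 wt/wt (blue) and 3 mut/mut (red) libraries, with marker shapes for replicate numbers and bars for the mean ± SD. Groups are apart for 8 genes and overlap for Fgfr3 and Errfi1, and mut/mut replicate 3 is the highest library for Erbb2, Fgfr1, Fgfr4 and Fgfrl1.

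Among the FGF receptors, Fgfr1 (chr8:25518759-25575718, plus strand), a receptor for FGF2, was the most abundant kinase. It was at 10106, 12250.0 and 11697 normalised counts in wt/wt and at 14908, 14307 and 19806 in the mut/mut-labelled libraries. The mut/mut values were all above the wt/wt values. The means were 11351 ± 1113 and 16340.4 ± 3016 (SD, n = 3 each), and the log2 fold change was 0.51 ± 0.17 (SE, limma adjusted p = 0.0186). Leaving out wt/wt replicate 1 ended the call (0.43, adjusted p = 0.0757). Equal totals turned the fold change to -0.20 (adjusted p = 0.163).

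Fgfr2 (chr7:130162451-130266808, minus strand) had 711, 552 and 669 normalised counts in wt/wt and 528, 537 and 385 in the mut/mut-labelled libraries. The groups did not overlap, yet wt/wt replicate 2 lay close to the upper mut/mut values. The log2 fold change of -0.42 ± 0.20 missed the threshold (SE, limma adjusted p = 0.0828). With totals set equal it was -1.13 and was called (adjusted p = 0.00426), and once detrended for GC content and length it was -0.13.

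Fgfr3 (chr5:33721724-33737068, plus strand), which is also an astrocyte and radial glia marker, varied most within wt/wt. Values after normalisation were 2863, 6821 and 5913 in wt/wt and 2466, 2432 and 3218 in the mut/mut-labelled libraries. Replicate 1 of wt/wt fell among the mut/mut values, so the groups overlapped. The means were 5199 ± 2073 and 2706 ± 444 (SD, n = 3 each), giving a log2 fold change of -0.86 ± 0.29 (SE, limma adjusted p = 0.0204). The call was lost without wt/wt replicate 2 (-0.62, adjusted p = 0.0840) or 3 (-0.72, adjusted p = 0.0663) and without mut/mut replicate 1 (-0.80, adjusted p = 0.0569) or 2 (-0.79, adjusted p = 0.0585). Wt/wt replicate 1 also had the lowest summed level of the 8 astrocyte markers of the wt/wt libraries, Fgfr3 being among them, with 34744 normalised counts against 51290.1 and 56659. As deposited that sum was 72941 to 109937 in the mut/mut-labelled libraries, with 2 of the 8 markers called higher and 5 lower. The part of astrocytic cells in the Fgfr3 values was not tested.

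Fgfr4 (chr13:55152818-55168759, plus strand) was close to absent in wt/wt, at 2.71, 1.56 and 1.63 normalised counts, and was at 13.6, 12.4 and 36.9 in the mut/mut-labelled libraries. These correspond to an estimated 9 and 39 reads over the libraries of each genotype. The groups did not overlap, and mut/mut replicate 3, the shallowest library, gave the highest value from about 14.7 reads. The log2 fold change was 2.74 ± 0.54 (SE, limma adjusted p = 9.36e-04), and the ratio of mut/mut to wt/wt was 8.23 (95% binomial interval 3.92 to 19.3, counting error of estimated reads only). Since Fgfr4 passed the filter through the mut/mut-labelled libraries only, neither the p-value nor the interval is support for a difference.

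Fgfrl1 (chr5:108694229-108706950, plus strand), the receptor without a kinase, was at 2256, 2978 and 3039.7 normalised counts in wt/wt and at 5655, 5297 and 8297 in the mut/mut-labelled libraries. Values of the genotypes were well apart. The means were 2758 ± 436 and 6416 ± 1639 (SD, n = 3 each), giving a log2 fold change of 1.20 ± 0.21 (SE, limma adjusted p = 3.67e-04). It was 0.49 (adjusted p = 0.0288) with totals set equal and 0.35 (adjusted p = 0.0347) once detrended for GC content and length.

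Errfi1 (chr4:150853796-150868889, plus strand), which binds and inhibits ErbB kinases and is itself induced by them, was at 351, 469 and 413 normalised counts in wt/wt and at 495, 403 and 345 in the mut/mut-labelled libraries. The groups overlapped, with the mut/mut values spanning those of wt/wt. The log2 fold change was 0.01 ± 0.21 (SE, limma adjusted p = 0.980), -0.71 with totals set equal (adjusted p = 0.0377) and 0.45 once detrended for GC content and length (adjusted p = 0.0303).

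Changes of single genes are to be read against the shift of all genes, whose median log2 fold change was -0.07 as deposited, -0.77 with totals set equal and 0.15 once detrended for GC content and length. Erbb2, Fgfr4 and Fgfrl1 were called higher, and Erbb3, Erbb4 and Fgfr3 lower, under each of these scalings. Erbb3 and Fgfr4 had to differ in order to pass the filter on the mean, so their repeated calls are no support for a difference. With totals set equal 3 of the 10 genes were higher and 6 lower, where the shares over all genes were 20.6% and 54.5% (75.1% in either direction). With the trend removed 6 of the 10 were higher and 3 lower, where they were 40.7% and 29.1% (69.9% in either direction).

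**Figure D2:**
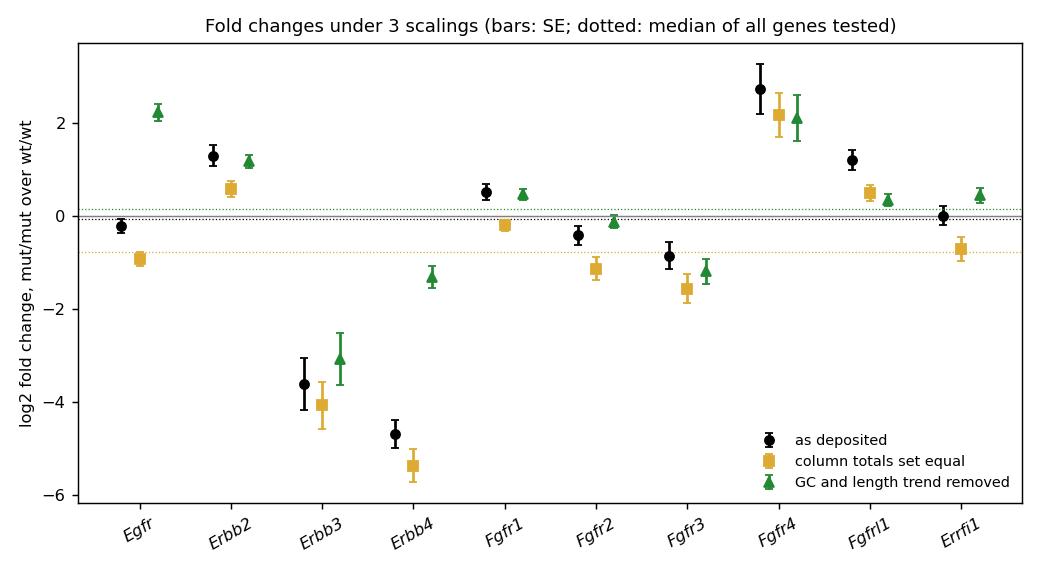
Log2 fold change of mut/mut over wt/wt (y axis) with its standard error for each gene under 3 scalings, with dotted lines for the median of all genes tested under each. Egfr moves from -0.22 as deposited to -0.93 with equal totals and to 2.23 once detrended for GC content and length, and Fgfr1 and Errfi1 also change sign with equal totals, whereas Erbb2, Fgfr4, Fgfrl1, Erbb3, Erbb4 and Fgfr3 stay on their side of 0.

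The fold change followed transcript GC content across all genes. Among 13220 genes with an annotated coding transcript the Spearman correlation was 0.594 with GC content and -0.46 with length, across genes, which are not independent replicates. Median log2 fold changes rose from -1.77 in the 40% to 45% GC bin, which holds Egfr (44.4%) and Erbb4 (40.6%), through -0.49 at 45% to 50% (Errfi1 and Fgfr2) and 0.52 at 50% to 55% (Erbb3), to 0.92 at 55% to 60%. The last bin holds Erbb2 (57.3%), Fgfr1 (55.4%), Fgfr3 (56.4%), Fgfr4 (58.8%) and Fgfrl1 (57.8%). Of the genes of that bin 63.6% were called higher and 11.6% lower. As deposited, Erbb2, Fgfr1, Fgfrl1, Fgfr2 and Errfi1 lay between the quartiles of their bins, Fgfr4 and Egfr lay above the upper quartile, and Erbb3, Erbb4 and Fgfr3 lay below the lower quartile. For Egfr the upper quartile was -0.72, and for Erbb4, in the same bin, the lower quartile was -2.83. The part of GC content and length in the fold changes of the receptors was not tested beyond the fit without the trend.

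**Figure D3:**
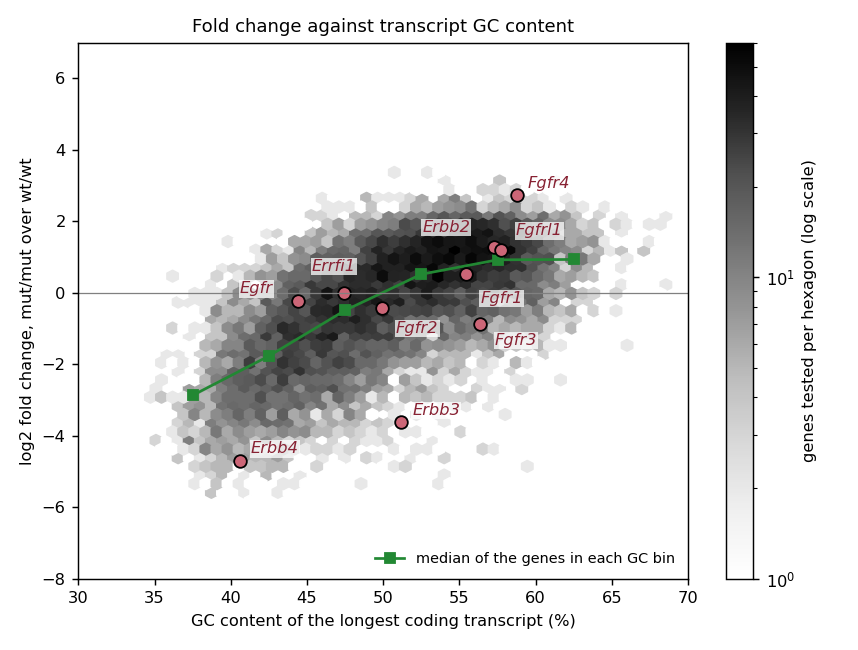
Log2 fold change of mut/mut over wt/wt (y axis) against the GC content of the longest coding transcript (x axis, %), with grey hexagons for the density of the genes tested, a green line for bin medians and red points for the 10 receptor genes. In the 40% to 45% bin (median -1.77) Egfr lies above and Erbb4 below the middle of the genes, and Fgfr3 lies below and Fgfr4 above the median of 0.92 in the 55% to 60% bin.

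Levels per kilobase of annotated exon, which allow genes to be set beside each other, placed Fgfr1 highest in wt/wt (1149 ± 113 normalised counts per kilobase, SD, n = 3), followed by Fgfrl1 (991 ± 157), Fgfr3 (726 ± 290), Egfr (471 ± 63.9), Erbb2 (153 ± 6.59), Errfi1 (115 ± 16.4), Fgfr2 (62.4 ± 7.99), Erbb4 (31.7 ± 5.85), Erbb3 (3.32 ± 1.12) and Fgfr4 (0.556 ± 0.182). Ranges of neighbours overlapped from Fgfr1 down to Egfr, and were apart from Egfr downwards. In the mut/mut-labelled libraries Fgfrl1 was highest (2306 ± 589 normalised counts per kilobase), then Fgfr1 (1655 ± 305), Egfr (403 ± 5.23), Erbb2 (389 ± 131), Fgfr3 (378 ± 62.0), Errfi1 (116 ± 21.1), Fgfr2 (46.8 ± 8.27), Fgfr4 (5.92 ± 3.90), Erbb4 (1.19 ± 0.467) and Erbb3 (0.121 ± 0.108). There the ranges of Fgfrl1 and Fgfr1 overlapped, as did those of Egfr, Erbb2 and Fgfr3, and the other neighbours were apart. Per kilobase Fgfr1 stood at percentile 90.02 of the genes tested in wt/wt and percentile 87.3 in the mut/mut-labelled libraries, and Fgfrl1 at percentiles 88.3 and 90.5. Fgfr2 is annotated in GENCODE with a transcript that reads through to Ctbp2, which lengthens its exons and lowers its level per kilobase.

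Shares within a family do not change with a factor common to all genes of a library, but they do change when the GC and length trend is removed. Of the summed level per kilobase of the ErbB receptors, Erbb2 made up 25.8%, 21.6% and 22.6% in wt/wt and 44.6%, 42.3% and 57.4% in the mut/mut-labelled libraries. The share of Egfr was 69.3%, 72.7% and 72.1% in wt/wt and 55.2%, 57.5% and 42.5% in the mut/mut-labelled libraries. As deposited, Erbb2 was therefore close to Egfr or above it in these libraries. Once detrended for GC content and length, Erbb2 was below Egfr in each of them, at 31.3%, 25.8% and 25.8% against 68.3%, 73.9% and 74.0%. As deposited the share of Egfr was 19.7 percentage points lower and that of Erbb2 24.8 points higher, but once detrended for GC content and length Egfr was 18.2 points higher and Erbb2 was at -15.2 points. Erbb4 held 4.79% ± 0.334 of the family in wt/wt and 0.156% ± 0.0744 in the mut/mut-labelled libraries (SD, n = 3 each). Once detrended these shares were 2.605% ± 0.261 and 0.302% ± 0.0931.

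Of the summed level of the FGF receptors, Fgfrl1 made up 35.2%, 32.3% and 34.5% in wt/wt and 51.6%, 50.8% and 54.4% in the mut/mut-labelled libraries. Fgfr3 had shares of 17.4%, 28.7% and 26.1% in wt/wt and 8.74%, 9.07% and 8.20% in the mut/mut-labelled libraries. Neither pair of groups overlapped, with higher values of Fgfrl1 and lower values of Fgfr3 in each mut/mut library. The share of Fgfr1 was 39.7% ± 4.06 in wt/wt and 37.8% ± 1.12 in the mut/mut-labelled libraries (SD, n = 3 each, exact two-sided permutation p = 0.8), a difference of -1.89 points that changed sign to 5.51 without scaling by length and to 8.55 once detrended for GC content and length. As deposited the groups did not overlap for the other 8 shares tested. Their exact two-sided permutation p was 0.1, the smallest that 3 against 3 can give (adjusted over the 9 shares, p = 0.113). Once detrended the groups overlapped for the share of Fgfr2 (exact two-sided permutation p = 0.4).

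**Figure D4:**
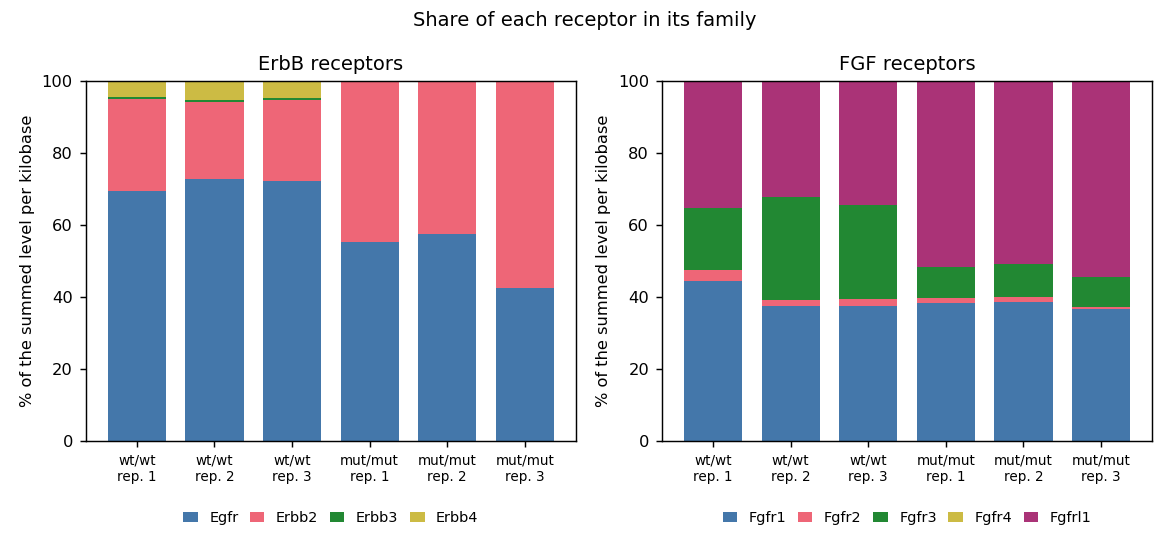
Share of each receptor in the summed level per kilobase of its family (y axis, %) in each library as deposited, with the ErbB receptors on the left and the FGF receptors on the right. The share of Erbb2 goes from 21.6% to 25.8% in wt/wt to 42.3% to 57.4% in the mut/mut-labelled libraries. This order turns around once detrended for GC content and length. The share of Fgfrl1 goes from 32.3% to 35.2% to 50.8% to 54.4%, and its detrended means are 39.7% and 45.7%.

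The genes most alike to Egfr over the 6 libraries, among 11415 genes whose mean reached 100, were Tagap1 (Pearson correlation of log2 values 0.980), Plekha2 (0.959) and Rsph3a (0.958), and 5 genes exceeded 0.95. For Fgfr1 they were Stard10 (0.999), Grhpr (0.997) and Phf7 (0.997), and 553 genes exceeded 0.95. These are descriptions over libraries that share genotype and depth. Like Egfr, Tagap1 peaked in wt/wt replicate 2 with 658 normalised counts (293 and 401 in the other wt/wt libraries, 281 to 335 in those labelled mut/mut).

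The pathway around the receptors was followed with 8 lists of ligands, sheddases, co-receptors, downstream and inhibitory genes and other receptor kinases. Of the 150 genes tested in them, 33 (22%) were called higher and 78 (52%) lower as deposited, beside 36.8% and 38.7% of all genes tested, and these splits moved with the scaling. Each list is given by its count and its median, to be read against those shares and the median of -0.07 over all genes, and nothing particular to a list is read from these. A mean of at least 10 was reached in a single genotype only by 12 of the 150, of which 11 were called. Egf, Nrg4, Fgf2, Fgf23 and Gpc5 are among them and, like Erbb3, passed the filter only through wt/wt.

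Of 11 ErbB ligands 8 were tested, 1 was higher and 3 were lower (median -1.08). Tgfa, which encodes the Egfr ligand TGF-alpha, was at 541, 595 and 562 normalised counts in wt/wt and 142.5, 143 and 162 in the mut/mut-labelled libraries (log2 fold change -1.92 ± 0.19, limma adjusted p = 8.42e-06). Egf itself was low, at 47.5 ± 9.75 and 4.45 ± 1.80 normalised counts (SD, n = 3 each, log2 fold change -3.19), and so was Nrg4, a ligand of Erbb4 (-2.95). Hbegf, with the highest count of the list, was higher, at 1531 ± 53.9 and 2937.5 ± 516 normalised counts (0.93 ± 0.17, limma adjusted p = 5.45e-04), but was at 0.21 with totals set equal (adjusted p = 0.358). The neuregulin genes Nrg1 and Nrg2, whose products bind Erbb3 and Erbb4, were at -0.39 (adjusted p = 0.203) and 0.14 (adjusted p = 0.52) as deposited, at -1.09 and -0.57 with totals set equal and at 1.75 and -0.51 once detrended.

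Of 22 FGF genes 7 were tested, and 1 was higher and 6 were lower (median -2.99). The list includes FGF homologous factors, which stay inside cells and are not receptor ligands. Of these factors Fgf11, Fgf12 and Fgf14 were lower, and Fgf13, at 1.20, was the gene called higher. The median depended on the filter on the mean, being -1.46 over 19 genes without it. It was -2.29 over 4 genes with a minimum mean of 100, at which the shedding genes had -2.65. Fgf1, with the highest count, had 4693, 2795 and 3183 normalised counts in wt/wt and 384, 738 and 219 in the mut/mut-labelled libraries, a log2 fold change of -3.13 ± 0.38 (limma adjusted p = 3.28e-05). Fgf11, an FGF homologous factor that stays inside cells, was at 2332.5 ± 942 and 100.9 ± 9.66 normalised counts (SD, n = 3 each, log2 fold change -4.42). Fgf14, another such factor, was at -1.96 as deposited and at 0.35 once detrended for GC content and length, and the hormone gene Fgf23 was low and at -2.99. Fgf2, the gene of the factor supplied with the medium, was at 17.0, 31.1 and 26.5 normalised counts in wt/wt and at 2.61, 1.07 and 0 in the mut/mut-labelled libraries (log2 fold change -3.69 ± 0.58, limma adjusted p = 2.01e-04). It was picked out after its values were seen.

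Of 7 genes for the release of ErbB ligands from the membrane, 2 were higher and 4 lower (median -1.08). The sheddases Adam10 and Adam17 were at 4800.1 ± 489 and 2899.6 ± 46.5 normalised counts in wt/wt and at 683 ± 254 and 510.0 ± 242 in the mut/mut-labelled libraries (SD, n = 3 each). Their log2 fold changes were -2.88 ± 0.26 and -2.65 ± 0.34 (limma adjusted p = 5.20e-06 and 5.46e-05), and -0.85 and -1.32 once detrended for GC content and length. Adam9 was at -3.71, Adam12, the highest count of the list, was at -1.08 (-0.04 with the trend removed), and Rhbdf1, an inactive rhomboid that helps Adam17 to the cell surface, was higher by 1.51 ± 0.20 (limma adjusted p = 5.64e-05).

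Of 19 FGF co-receptors and heparan sulfate proteoglycans 16 were tested, 4 were higher and 9 lower (median -0.92). Syndecan 1 (Sdc1) went from 1380.4, 1371 and 1543 normalised counts in wt/wt to 4997, 5434 and 7982 in the mut/mut-labelled libraries (log2 fold change 2.07 ± 0.19, limma adjusted p = 6.96e-06), and the glypican Gpc4 was also higher (1.97). Another glypican, Gpc5, was lower (-4.72 ± 0.42), as was Flrt2 (-2.69, but -0.02 with the trend removed). Sdc3, with the highest count, was at -0.08 (adjusted p = 0.763).

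Of 29 adaptors and kinases of the Ras-ERK cascade 6 were higher and 15 lower (median -0.43). Braf was at 960.3, 1093 and 1021 normalised counts in wt/wt and 77.1, 84.0 and 61.1 in the mut/mut-labelled libraries (log2 fold change -3.78 ± 0.20, limma adjusted p = 3.54e-07). The Ras inactivators Nf1 (-2.90) and Rasa1 (-3.27) were lower as well. In contrast, Hras was higher, at 2847 ± 364 and 13618 ± 3198 normalised counts (SD, n = 3 each, log2 fold change 2.24 ± 0.19, limma adjusted p = 4.17e-06), and Map2k2, which encodes MEK2, was higher by 1.90. With the trend removed Braf was at -0.999, Nf1 at -0.45 and Rasa1 at -1.21, and the list then held 14 higher and 10 lower.

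Of 24 genes for degradation or inhibition of the receptors 23 were tested, with 5 higher and 14 lower (median -1.19), but once detrended for GC content and length 14 of 22 were higher and 4 lower. Ptprj, a receptor phosphatase, went from 2165, 2116 and 2158 normalised counts in wt/wt to 385, 431 and 221 (log2 fold change -2.69 ± 0.24, limma adjusted p = 5.75e-06), and was at -1.51 with the trend removed. Socs4 was at -2.05 as deposited and 1.26 with the trend removed, and Sh3kbp1 at -1.98 and 0.28. Lrig1, an inhibitor of ErbB receptors and the highest count of the list, was at 16581 ± 1004.7 and 24344 ± 3845 normalised counts (SD, n = 3 each), a difference of 0.54 that was -0.17 with totals set equal. Its relative Lrig2 was lower, at -2.97 (-0.98 once detrended).

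Of 23 feedback and target genes of ERK, 22 were tested, 6 were higher and 7 lower as deposited (median -0.19). With totals set equal 2 were higher and 16 lower (median -0.90), and once detrended 5 were higher and 12 lower (median -0.51). Fos, an immediate early gene, was at 1507, 1729 and 1721 normalised counts in wt/wt and 272, 331.5 and 333 in the mut/mut-labelled libraries (log2 fold change -2.40 ± 0.18, limma adjusted p = 1.74e-06). The feedback inhibitors Spry2 (-1.08 ± 0.14) and Spred2 (-1.05 ± 0.16) were lower, and Spred1 was at -2.04 as deposited but 0.54 with the trend removed. Ccnd1, cyclin D1, had the highest count, at 68894 ± 9008 and 107109 ± 15281 normalised counts (SD, n = 3 each, 0.63, limma adjusted p = 0.00535), and was at -0.08 with totals set equal.

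Of 50 other receptor tyrosine kinases 38 were tested, 8 were higher and 20 lower as deposited (median -0.80). With totals set equal 2 were higher and 28 lower, and once detrended 11 were higher and 14 lower (median 0.15). Low adjusted p-values were found for Pdgfra, the PDGF receptor of oligodendrocyte precursors, which went from 1913, 2067 and 1959 normalised counts in wt/wt to 66.6, 43.1 and 45.5 (log2 fold change -5.26 ± 0.22, limma adjusted p = 1.68e-07), and for the ephrin receptor Epha5 (-4.22, and -1.17 once detrended). The insulin receptor Insr was at -2.94 (-1.11 once detrended) and Mertk at -2.67 (-2.05 once detrended). Ddr1, a collagen receptor and the highest count of these kinases, was higher by 0.93 ± 0.18 (limma adjusted p = 9.22e-04) as deposited and at 0.22 (adjusted p = 0.142) with totals set equal.

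**Figure D5:**
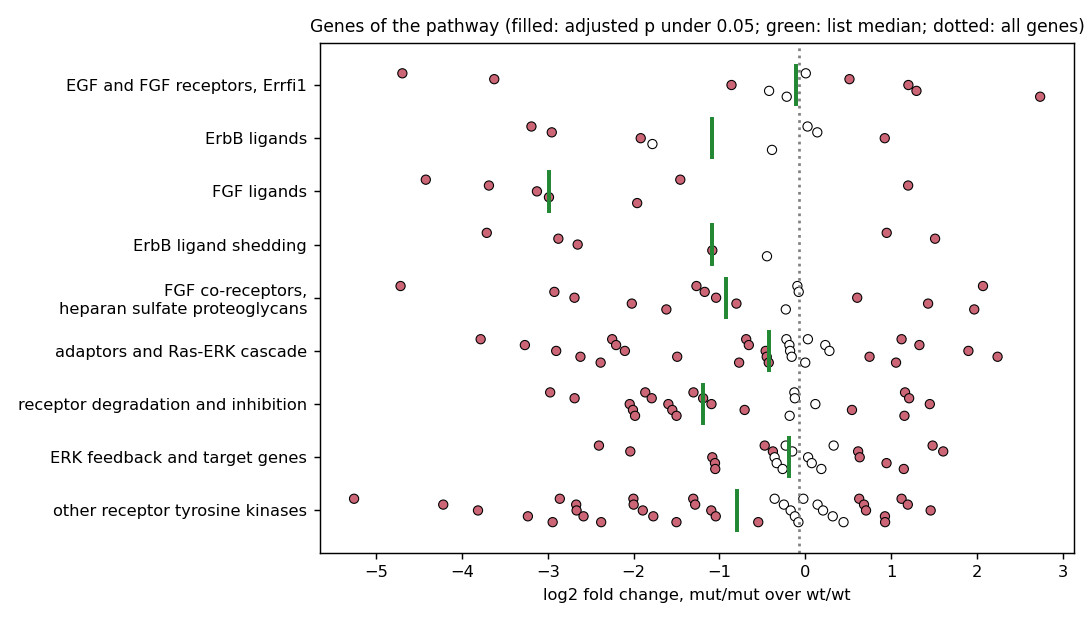
Log2 fold change of mut/mut over wt/wt as deposited (x axis) of each gene tested in the receptor list and 8 lists of the pathway (rows), with filled circles for genes called, a green bar for the list median and a dotted line for the median of all genes. The FGF list, with 7 of 22 genes tested and homologous factors among them, has the lowest median as deposited (-2.99), a rank that a minimum mean of 100 ends. The list of receptor degradation and inhibition, at -1.19 here, has more genes higher than lower once the GC and length trend is removed.

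Properties of the whole series bear on these values. Normalised totals were 28.99 to 30.4 in wt/wt and 45.1 to 55.8 in the mut/mut-labelled libraries, in units of 1000000, and the estimated depth in the same units was 34.1 to 56.6 and 22.2 to 48.5 reads. Tsc2 was higher in the mut/mut-labelled libraries (3231, 2934 and 2794 against 4766, 5645 and 8210.5 normalised counts, log2 fold change 1.02 ± 0.20, limma adjusted p = 0.00102), a value for the whole gene that does not isolate the floxed part and does not check the label. According to the study, western blots of the sequenced cultures showed loss of tuberin, a protein measurement not analysed here. Tsc1, which encodes its partner hamartin, was lower (1349, 1348 and 1253 against 702.5, 655.5 and 563 normalised counts, log2 fold change -1.04 ± 0.17, limma adjusted p = 2.18e-04). NSC markers were expressed in both groups, with summed levels of 255967 to 299801 and 232028 to 278847 normalised counts. Of the 12, 3 were called higher and 6 lower. Counts of markers called in this paragraph are to be read beside the shares of all genes tested, 36.8% higher and 38.7% lower as deposited. The oligodendrocyte precursor markers are given beside Erbb3. Myelinating oligodendrocyte markers were at sums of 6991 to 18177 and 6848 to 9621, with 0 called higher and 4 lower of 6 tested. Endothelial markers were at sums of 461 to 942 and 102 to 219 (1 higher and 1 lower of 3 tested). Fibroblast and meningeal markers were at sums of 2305 to 2700 and 192 to 816 (0 higher and 1 lower of 4 tested). All 8 microglia and macrophage markers were lower (sums of 459 to 1328 and 19.9 to 40.0), with Aif1, Cx3cr1, Ptprc and Itgam at 0 in each mut/mut library. With so low a sum over all 8, these 4 and most of the others passed the filter on the mean through wt/wt only. They had to be lower to be tested. Mural and smooth muscle markers were at sums of 180.0 to 277 and 5479.5 to 7693, but of the 6 markers only Acta2 and Tagln were called higher. Ependymal markers were at sums of 703 to 1064 and 5849 to 8469.5, with only Foxj1 called higher of 6 markers (3 tested). Neuroblast and neuron markers were at sums of 14268 to 15532 and 4269 to 5687, with 3 called higher and 4 lower of 9 tested. Y-linked Ddx3y was at 867 to 932 in wt/wt and 2.54 to 7.43 in the mut/mut-labelled libraries, so the sex of the cultures cannot be told apart from genotype. Of the 5 sex-linked genes (Xist, Ddx3y, Uty, Eif2s3y and Kdm5d) 4 were called lower and 1 was not called as deposited. Ddx3y passed the filter on the mean through wt/wt only and had to be lower to be tested, so its call adds no support. Without wt/wt replicate 1, which had the highest sum of these genes, 1 was called higher and 4 lower. Whether each culture held cells of 1 sex was not tested. The part of these cell types in the receptor values was not tested.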

How the data were processed

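Poly(A) RNA of 6 cultures was sequenced by the authors, who aligned reads to mm10 with STAR and normalised gene counts with DESeq2. The deposited values are a normalised signal, 1 column per library. How genes were counted (counter, annotation, strand) was not given in the sources used here, and overlapping genes cannot be separated (exons of Fgfr3 share 998 bases with G630022F23Rik on the opposite strand, those of Fgfr1 164 with Gm16159, those of Erbb2 9 with Mien1). Low values crowded at multiples of the worth of a read, but only 54.7% to 84.2% lay within 0.1 of a whole read, so reads were not recovered and depths are estimates. A column whose name lacks a digit of its label was taken as wt/wt replicate 2.

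Values entered limma 3.58.1 (R 4.3.3) as log2(value + 1), a scale that understates changes of low genes, with genotype as the only term, trend and robust settings, and a two-sided test. Fold changes are mut/mut over wt/wt. Alternatives were equal column totals, median-of-ratios factors, removal per library of a spline trend (5 degrees of freedom) with GC content and length, a replicate block, pseudocounts of 0.5 and 10, other filters, and each library left out. Exon lengths came from GENCODE vM21, positions and promoters from RefSeq GRCm38.p6. The fit was also run on simulated data with far fewer changed genes and no trend with GC content or length. That run therefore does not cover the shifts seen in these libraries. Genes named were the 10 receptors, Tsc2, Tsc1, the gene of highest mean count in each list and up to 4 called genes of lowest adjusted p, and the 3 most alike to Egfr and Fgfr1. Nrg1, Nrg2, Fgf2, Fgf12 and Fgf13 were added after their values were seen. Members and lists were chosen with earlier results of these data known.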

Additional observations from a re-analysis of the deposited data

How the results depend on the processing

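The calls of Erbb2, Erbb4 and Fgfrl1 were the same in each alternative, as were those of Erbb3 and Fgfr4 except with a minimum mean of 100, at which they were not tested. With column totals set equal 6 receptor genes were lower, against 3 as deposited, Fgfr1 was at -0.20, Errfi1 at -0.71, and 16 pathway genes were higher, against 33. Once detrended for GC content and length 53 pathway genes were higher, Egfr was at 2.23, and the differences in family share were 18.2 percentage points for Egfr, -15.2 for Erbb2 and 8.55 for Fgfr1. The Fgfr1 share difference was also 0.767 with the longest transcript as length, 5.51 without scaling by length and -3.07 to 0.451 with each library left out (0.451 without wt/wt replicate 1). With each library left out in turn Errfi1 ranged from -0.13 to 0.13 (at -0.10 when wt/wt replicate 1 was left out, and at -0.13 for mut/mut replicate 1), Fgfr1 from 0.37 to 0.60 and Fgfr3 from -1.24 to -0.62, with calls lost as given above. Tsc2 was at 0.31 (adjusted p = 0.0813) with totals set equal and Tsc1, at -1.04 as deposited, moved to -0.28 (adjusted p = 0.0540) once detrended, neither called there. The cause of these changes was not tested.

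Deviations of samples with the same replicate number correlated at 0.112, -0.0037 and 0.0712, and those with unlike numbers at -0.0949 to 0.0502. With 3 libraries per genotype such weak correlations cannot decide whether the numbers pair the samples. With a replicate block 7 receptor genes were called, 4 higher and 3 lower, and 111 pathway genes, 33 of them higher. With the block and the trend removed together 9 receptor genes and 110 pathway genes were called, of which 53 were higher, and Egfr was again at 2.23. Depth limits Erbb3 and Fgfr4, which rest on 2 and 9 estimated reads in their low group.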
